A study of Mus musculus with 6 samples.

Results

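The genes of antioxidant defence and thiol redox control were followed in neurospheres overexpressing Bmi1, which encodes a repressor protein of the Polycomb group. The set held 45 genes listed by their function, among them the superoxide dismutases, catalase, glutathione peroxidases, peroxiredoxins, thioredoxins, the enzymes of glutathione metabolism, and Nfe2l2 with its inhibitor Keap1. A gene was measured where the platform annotation named it alone on at least 1 probe set, which held for 43 of the 45 and for 19938 genes on the array. Prdx5 and Prdx6 had no such probe set and were not analysed here. Gpx4, Prdx1 and Prdx2 had a second probe set, and the brighter one was used.
Each sample was hybridized to 1 Affymetrix Mouse Gene ST array, with 3 arrays per group. Both groups were neurospheres, floating clusters that neural stem/progenitor cells form in culture, from the wall of the lateral ventricle of outbred CD1 mice aged 4 to 6 weeks. All cells had received a retroviral pCMMP vector with eGFP, were isolated by FACS for that marker, and grew at a density of 2000 cells per well. Control cells carried the empty vector and test cells the vector with Bmi1, named without a tag in the labels and with a FLAG tag in the text of the study. The design text speaks of 3 independent cultures per group, and the labels do not say from how many mice each culture came.
The labels were checked first. The log2 values of Bmi1 itself were 7.70, 8.40 and 8.31 in control neurospheres against 9.18, 8.36 and 8.42 in those given Bmi1, and the groups overlapped (adjusted p = 0.38). Titles, transduction and genotype fields were followed, while the source field contradicts them for every array. With groups as titled, Cdkn2a, the textbook target of repression by Bmi1, had a log2 difference of -1.08 (adjusted p = 0.0012), and Epha7, a receptor tyrosine kinase gene, of -3.83. Progenitor markers were bright in both groups, with means of 10.20 and 10.42 for Sox2, 9.69 and 9.64 for Nes, and 12.27 and 12.25 for Vim (empty vector and Bmi1, log2 scale). Array medians lay between 4.37 and 4.43 in control neurospheres and between 4.44 and 4.45 with Bmi1, so each Bmi1 array had the higher median. The table holds no detection calls, and precision is limited by how many arrays there are.

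Cells produce superoxide and hydrogen peroxide as by-products of respiration and, on purpose, through NADPH oxidases. Superoxide dismutases turn superoxide into hydrogen peroxide, which catalase, glutathione peroxidases and peroxiredoxins reduce to water with electrons that come from glutathione or thioredoxin and, through their reductases, from NADPH. The transcription factor Nrf2, the product of Nfe2l2, is held in the cytoplasm and marked for degradation by Keap1, and drives many of these genes when Keap1 is oxidized. In the brain the activity of Nrf2 is known mainly from astrocytes.

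Of the 43 measured genes, 6 fell and 1 rose in Bmi1-overexpressing neurospheres. A gene is said to rise or fall where limma gave an adjusted p below 0.05, with adjustment over all 35557 probe sets, and every log2 difference is the mean with Bmi1 minus the mean with the empty vector, with its standard error (SE) from the fit. The genes that fell were Sod3, Gpx8, Gsta4, Mgst1, Nqo1 and Msra, and the gene that rose was Prdx4. The differences were small, from -0.78 for Sod3 to 0.34 for Prdx4, or 1.72-fold lower to 1.26-fold higher. The 7 calls make 16.3% of the set, beside 7.35% of all genes with a probe set of their own. Among brighter genes, with a mean over the 6 arrays of at least 5, the shares were 16.2% (6 of 37) and 12.3%. The 6 that fell make 14% beside a background of 4.37%, and the 1 that rose 2.33% beside 2.98%. Among the brighter genes 13.5% of the set fell beside 7.46%, and 2.7% rose beside 4.82%.
The groups did not overlap for 29 of the 43 genes, or 67.4%, beside 31.3% of all genes and, for the brighter ones, 64.9% beside 46.1%. Of these 29, the Bmi1 arrays were the lower ones for 19 genes (15.9% of all genes lay so) and the higher ones for 10 (15.3%). The median log2 difference was -0.05, beside 0.01 for all genes. With 3 arrays against 3, exact permutation of 1 gene's values gives no p under 0.1. The 7 calls rest on few arrays: Gpx8 passed with each of the 6 arrays left out in turn, Mgst1 passed only without Bmi1 replicate 3, and the other 5 passed in none of these fits.

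**Figure D1:**
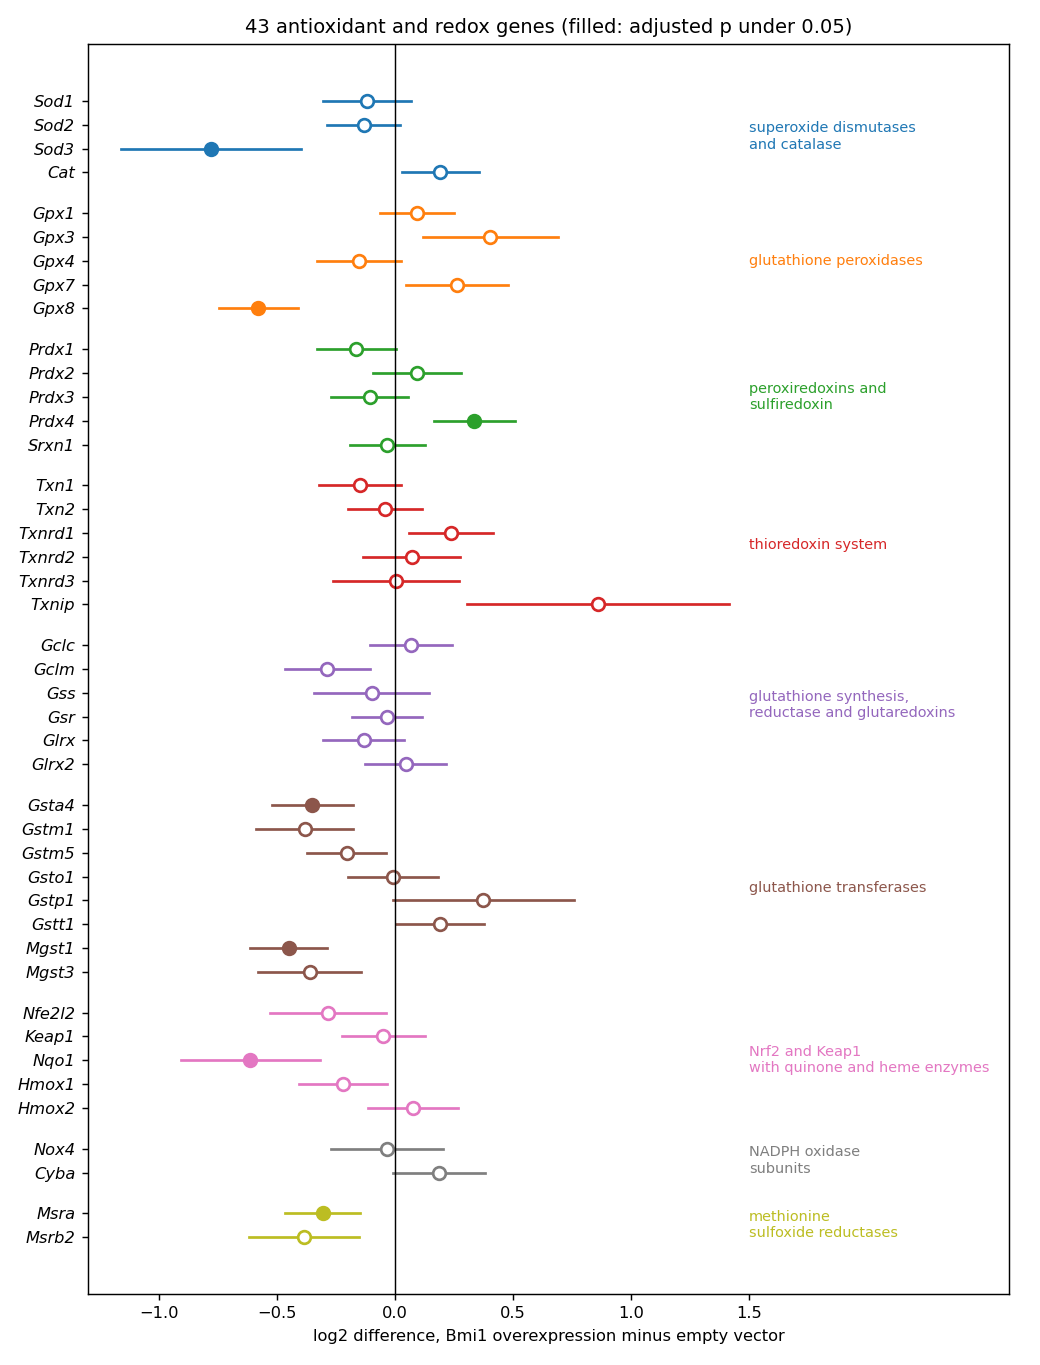
Log2 difference, Bmi1 overexpression minus empty vector (x axis), for the 43 redox genes (y axis), grouped and coloured by role, with bars for the 95% confidence interval from limma and filled points for an adjusted p under 0.05. The filled points are Sod3, Gpx8, Gsta4, Mgst1, Nqo1 and Msra to the left of 0 and Prdx4 to the right, and the widest interval is that of Txnip.

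Among the enzymes that remove superoxide, the extracellular form fell while the intracellular forms did not pass the test. Sod3, the superoxide dismutase secreted into the matrix, read 4.97, 5.12 and 4.77 with the empty vector and 4.29, 3.87 and 4.36 with Bmi1. All Bmi1 arrays lay below the control arrays, on a probe set that was dim throughout. The log2 difference was -0.78 (SE 0.16, adjusted p = 0.043), and the adjusted p was 0.070 to 0.13 with any 1 array left out.
Sod1, the cytosolic copper-zinc enzyme, went from 10.12 ± 0.06 to 10.00 ± 0.09 (SD, n = 3 each), with groups that overlapped (adjusted p = 0.48). Sod2, the manganese enzyme of mitochondria, went from 9.53 ± 0.04 to 9.39 ± 0.05 (SD, n = 3 each), and its log2 difference of -0.13 had a 95% confidence interval of -0.29 to 0.02. Catalase, which breaks down hydrogen peroxide in peroxisomes, read 8.11, 8.17 and 8.13 against 8.37, 8.26 and 8.36. The Bmi1 arrays were the higher ones for Cat, by 0.19 in the mean, and the adjusted p was 0.18.

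Gpx8 had the lowest adjusted p of the 43 genes. It encodes a thiol peroxidase in the membrane of the endoplasmic reticulum, related to the glutathione peroxidases but with cysteine in place of selenocysteine. Gpx8 read 9.60, 9.70 and 9.59 with the empty vector and 9.11, 9.04 and 9.01 with Bmi1, so that 0.48 separated the nearest arrays of the groups. The log2 difference was -0.58 (SE 0.07, 95% confidence interval -0.75 to -0.41, adjusted p = 0.0071), a 1.49-fold fall. With any 1 array left out the adjusted p was 0.028 to 0.036.
The other 4 glutathione peroxidases did not pass. Gpx1, the main cytosolic enzyme, had a log2 difference of 0.09 (95% confidence interval -0.07 to 0.25). Gpx4, which reduces lipid hydroperoxides in membranes and restrains ferroptosis, had a log2 difference of -0.15 on the probe set used and of -0.15 on its second one (adjusted p = 0.32 and 0.34). Gpx3, the secreted form, read 3.58, 3.72 and 3.55 against 3.93, 4.25 and 3.87, and Gpx7, a soluble relative of Gpx8 in the endoplasmic reticulum, read 4.52, 4.60 and 4.69 against 4.90, 4.73 and 4.96. On both dim probe sets every Bmi1 array was above every control array, with log2 differences of 0.40 and 0.26 (adjusted p = 0.12 and 0.17).

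The gene that rose was a peroxiredoxin of the endoplasmic reticulum. Prdx4, which uses peroxide to form disulfide bonds in newly made proteins, read 7.62, 7.76 and 7.72 with the empty vector and 8.03, 8.08 and 7.99 with Bmi1. The groups were 0.23 apart and the log2 difference was 0.34 (SE 0.07, adjusted p = 0.049), close to the threshold. With any 1 array left out the adjusted p was 0.097 to 0.14, and after median centring of the arrays Prdx4 did not pass.
Prdx1 and Prdx2, the abundant peroxiredoxins of the cytosol, differed by -0.16 and 0.09 on the log2 scale (adjusted p = 0.26 and 0.58). Their second probe sets gave -0.15 and 0.15, so the direction for each gene was shared by both probe sets. Copies of these genes elsewhere in the genome may share their probes, so the values are uncertain. Prdx3, the mitochondrial form, had a log2 difference of -0.11, and Srxn1, the sulfiredoxin that repairs overoxidized peroxiredoxins, of -0.03 (95% confidence interval -0.19 to 0.13). These 4 genes did not pass.

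**Figure D2:**
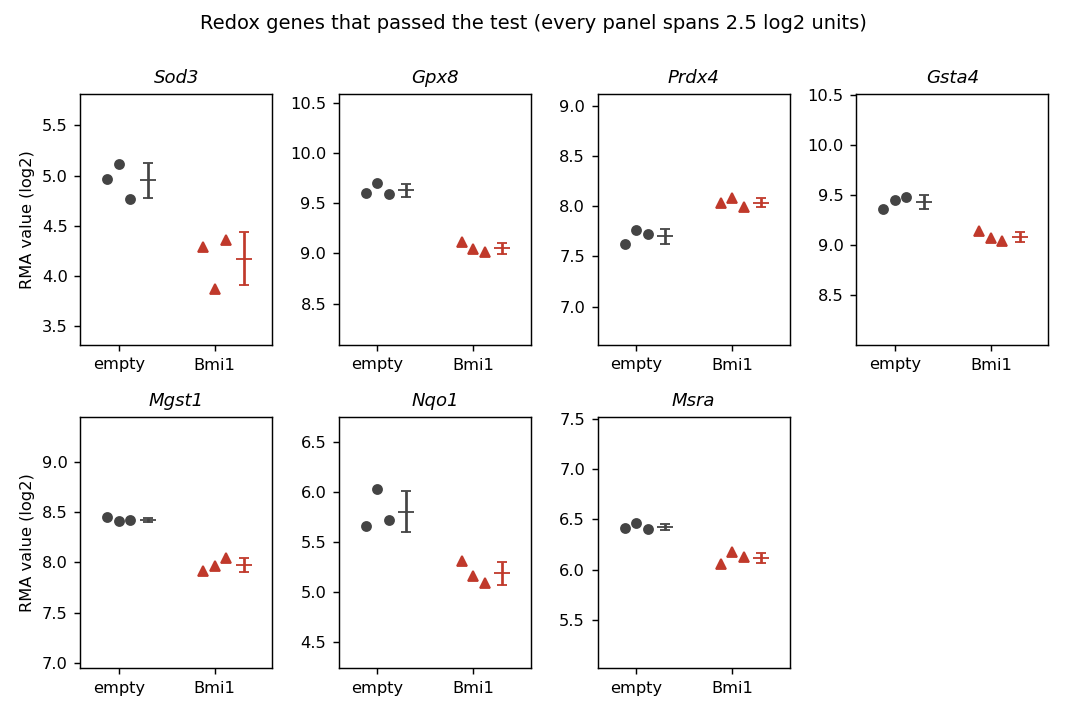
RMA values on the log2 scale (y axis) of the 7 redox genes that passed the test, where each point is 1 array (circles for empty vector, triangles for Bmi1 overexpression) and the group mean ± SD drawn beside them. In every panel the 2 groups are apart, by 0.48 for Gpx8 and by 0.21 for Gsta4, and Prdx4 alone is higher with Bmi1.

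No gene of the thioredoxin system passed the test. Txn1, the cytosolic thioredoxin that passes electrons to peroxiredoxins, read 12.84, 12.85 and 12.70 against 12.67, 12.67 and 12.61, and its log2 difference of -0.15 had an adjusted p of 0.32. Txnrd1, the selenoenzyme that recharges it, read 8.29, 8.37 and 8.34 against 8.59, 8.64 and 8.47. For Txnrd1 every Bmi1 array was the higher one, and the log2 difference of 0.24 had an adjusted p of 0.14. The mitochondrial pair Txn2 and Txnrd2 had log2 differences of -0.04 and 0.07, and Txnrd3, known from testis, of 0.00.
Txnip, which binds thioredoxin and blocks it, had the largest difference of the genes that did not pass. On a dim probe set it read 3.17, 3.57 and 3.15 with the empty vector and 4.00, 3.83 and 4.63 with Bmi1, without overlap but with a wide spread. The log2 difference was 0.86 (SE 0.23, adjusted p = 0.097). Without Bmi1 replicate 3, the highest array, the log2 difference was 0.62.

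No gene of glutathione synthesis, its reductase or the glutaredoxins passed the test. Gclm, the regulatory subunit of the ligase that sets the pace of glutathione synthesis, read 8.40, 8.43 and 8.39 with the empty vector and 8.12, 8.22 and 8.03 with Bmi1. The groups were 0.17 apart, and the log2 difference of -0.29 (SE 0.07) had an adjusted p of 0.088. Gclc, the catalytic subunit of the same ligase, had a log2 difference of 0.07 (95% confidence interval -0.10 to 0.24). Gss, which completes glutathione, and Gsr, which reduces its oxidized form, had log2 differences of -0.10 and -0.03, the latter with an interval of -0.18 to 0.11. The glutaredoxins Glrx and Glrx2, which remove glutathione from protein thiols, had log2 differences of -0.13 and 0.05. The Bmi1 arrays lay below all control arrays for Gclm and Glrx, and the groups overlapped for the other 4 genes.

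The glutathione transferases, which couple glutathione to reactive compounds for export, were lower with Bmi1 in most cases. Of the 8 in the set, Gsta4 and Mgst1 fell and none rose. These 2 make 25%, beside 4.37% of all genes and 7.46% of the brighter ones. The mean was lower for 6 of the 8, and for 9350 of all 19938 genes (5361 of the 10223 brighter ones). The median log2 difference of the 8 was -0.28. Mgst1, a transferase and peroxidase of the endoplasmic reticulum and outer mitochondrial membrane, read 8.45, 8.41 and 8.42 with the empty vector and 7.91, 7.96 and 8.04 with Bmi1. The groups were 0.36 apart, and the log2 difference was -0.45 (SE 0.07, adjusted p = 0.015), a 1.37-fold fall. With 1 array left out the adjusted p was 0.033 to 0.063.
Gsta4, which conjugates the lipid peroxidation product hydroxynonenal, read 9.36, 9.45 and 9.48 against 9.14, 9.07 and 9.04. Its groups were 0.21 apart, and the log2 difference was -0.35 (SE 0.07, adjusted p = 0.043). Without any 1 array its adjusted p was 0.077 to 0.14, and after quantile normalization it did not pass.
Gstm1, the main mu class enzyme of astrocytes, read 9.44, 9.56 and 9.54 against 9.07, 9.05 and 9.27, with an adjusted p of 0.057. Gstm5 and Mgst3 were also lower on every Bmi1 array, by 0.21 and 0.36 in the mean (adjusted p = 0.17 and 0.082). Gstp1, the pi class enzyme, and Gstt1, of the theta class, lay the other way, with log2 differences of 0.37 and 0.19, and their nearest arrays were only 0.01 and 0.03 apart (adjusted p = 0.26 and 0.24). Gsto1 had a log2 difference of -0.01 with groups that overlapped.
Of 16 other transferase genes with a probe set, 4 fell and none rose. Gstk1, the kappa class enzyme of mitochondria and peroxisomes, read 6.98, 6.58 and 6.86 with the empty vector and 5.44, 4.89 and 5.15 with Bmi1. This was a larger change than for any of the 43 genes, with a log2 difference of -1.65 (SE 0.17, adjusted p = 0.0042), or 3.14-fold lower. Gstm7, of the mu class, fell by 0.72 on the log2 scale (adjusted p = 0.0024), to 6.50 ± 0.01 from 7.22 ± 0.05 (SD, n = 3 each). Gsto2, of the omega class, fell by 0.59 (adjusted p = 0.023). Gdap1, a mitochondrial protein with transferase-like domains, fell by 0.71 on a dim probe set (adjusted p = 0.0030). Together the transferases of both lists had 6 of 24 genes that fell, Gdap1 among them, or 25%. All genes gave 4.37% and the brighter ones 7.46%. The sum over both lists was formed after the values were seen. The mu class genes lie side by side and resemble each other in sequence, so part of their signals may be shared. In bulk RNA, fewer cells of a type and less RNA per cell cannot be told apart.

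**Figure D3:**
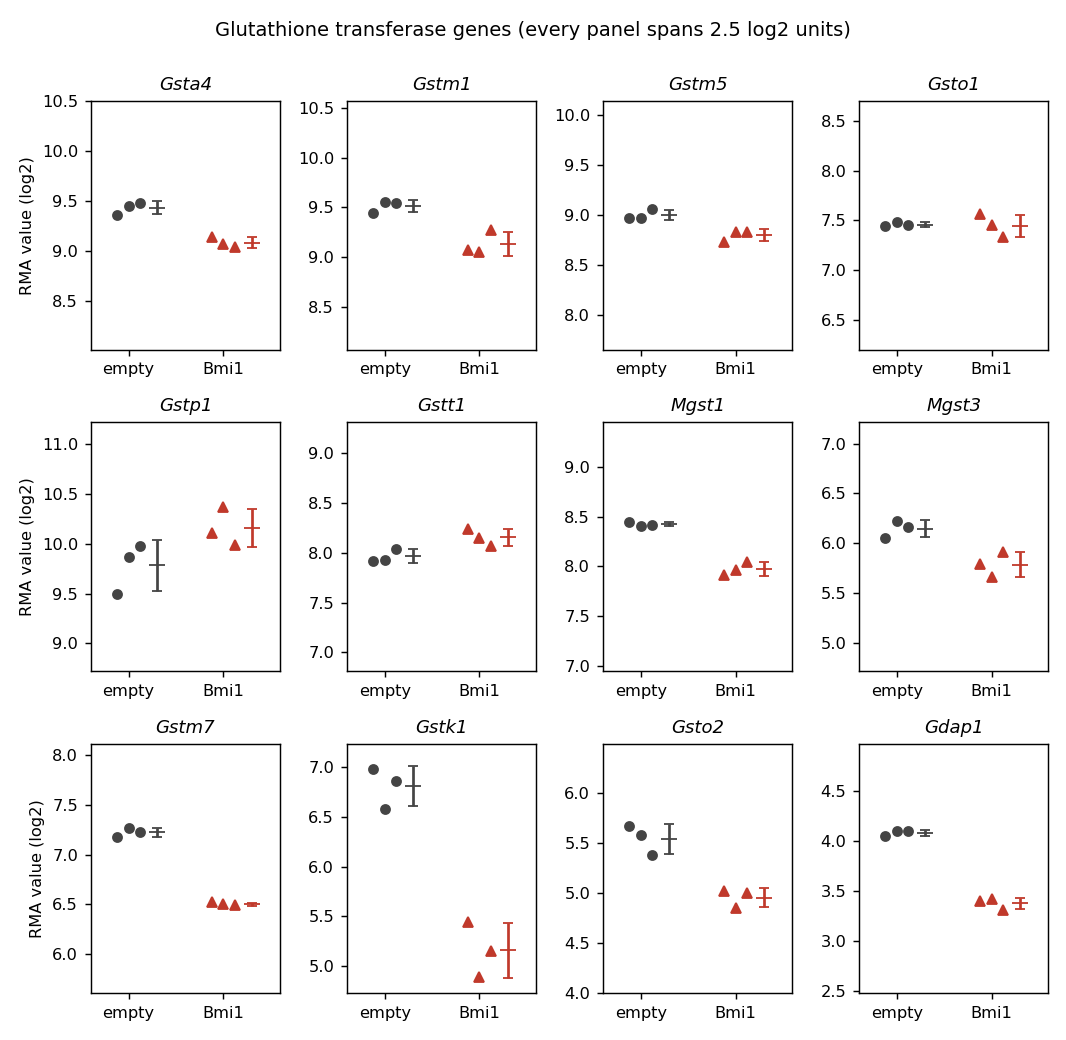
RMA values on the log2 scale (y axis) of the 8 glutathione transferase genes of the set and of the 4 other transferase genes that passed the test, where each point is 1 array (circles for empty vector, triangles for Bmi1 overexpression) and the group mean ± SD as bars. Gstk1 spans 6.98 to 4.89, Mgst1 and Gstm7 have narrow groups that lie apart, and Gsto1 overlaps.

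Nfe2l2 and Keap1 did not pass the test, while Nqo1, a target gene of Nrf2, fell. Nfe2l2 read 8.14, 8.34 and 8.45 with the empty vector and 7.93, 8.04 and 8.10 with Bmi1. Its groups were only 0.03 apart, and the log2 difference of -0.29 (SE 0.10) had an adjusted p of 0.19. Keap1 had a log2 difference of -0.05 (95% confidence interval -0.22 to 0.13). Protein levels and activity of Nrf2 were not measured here.
Nqo1, which reduces quinones without forming radicals, read 5.66, 6.03 and 5.72 with the empty vector and 5.31, 5.16 and 5.09 with Bmi1. All Bmi1 arrays were lower, by at least 0.34, and the log2 difference was -0.61 (SE 0.12, adjusted p = 0.041), a 1.53-fold fall. Without any 1 array the adjusted p was 0.066 to 0.12. Hmox1, the inducible heme oxygenase, read 8.10, 8.23 and 8.11 against 8.03, 7.89 and 7.87, lower on every Bmi1 array by a small margin (log2 difference -0.22, adjusted p = 0.19). Hmox2, the constitutive form, had a log2 difference of 0.08 with groups that overlapped.

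Nrf2 binds antioxidant response elements, whose core letters TGACNNNGC were searched on both strands of RefSeq promoter windows of GRCm38.p6, each reaching from 250 bases before to 50 after a transcript start. Of the 45 genes, 38 had a window. A match lay in 9 of the 38, or 23.7%, beside 14% of 27025 genes with a window, and by window in 17.6% of 51 beside 12.4% of 32851. Of the 4 called genes with a window, Mgst1 had a match, and Gpx8, Nqo1 and Prdx4 had none between these bounds. The 7 matches before the start are shown with their surroundings, on the strand that reads the core and with the core in capitals, because they show how far the letters around it vary between genes that Nrf2 is known for (Gclm, Prdx1, Txnrd1) and others of the set.
Mgst1, chr6:138140455-138140495, minus strand: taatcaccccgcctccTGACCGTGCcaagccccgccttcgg
Gclm, chr3:122245407-122245447, minus strand: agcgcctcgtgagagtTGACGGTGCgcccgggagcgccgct
Gstm5, chr3:107895796-107895836, plus strand: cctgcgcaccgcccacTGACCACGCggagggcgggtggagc
Nfe2l2, chr2:75704879-75704913, minus strand: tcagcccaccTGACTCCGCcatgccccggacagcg
Prdx1, chr4:116685450-116685490, minus strand: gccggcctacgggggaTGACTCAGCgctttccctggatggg
Sod1, chr16:90220690-90220730, minus strand: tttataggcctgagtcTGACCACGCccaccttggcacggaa
Txnrd1, chr10:82859098-82859138, minus strand: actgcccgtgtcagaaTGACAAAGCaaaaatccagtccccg
The core of Prdx1 also holds TGACTCA, the letters of an AP-1 site, and that of Gstm5 is the same as that of Sod1. Msrb2 and Srxn1 had their match after the start. Of the 9 genes with a match, 8 had a lower mean with Bmi1, with log2 differences from -0.45 for Mgst1 to -0.03 for Srxn1. For Txnrd1 the mean was higher, by 0.24. A lower mean was also seen for 27 of the 43 measured genes and for 9350 of all 19938. Of the 9, only Mgst1 passed the test. A match is a description of letters and not a measured binding site.
The last 100 bases before the start of Gpx8 and Prdx4, the gene with the lowest adjusted p and the one that rose, are shown with CpG in capitals, since promoters rich in CpG are the usual sites of Polycomb complexes.
Gpx8, chr13:113046389-113046488, minus strand: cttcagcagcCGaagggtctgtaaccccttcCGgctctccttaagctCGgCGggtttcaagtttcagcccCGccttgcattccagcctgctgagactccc
Prdx4, chrX:155338461-155338560, minus strand: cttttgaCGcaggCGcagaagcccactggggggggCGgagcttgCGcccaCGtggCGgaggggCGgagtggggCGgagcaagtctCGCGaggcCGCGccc
The stretch of Gpx8 holds 5 CpG and its 300-base window 13, those of Prdx4 12 and 20. Among the other called genes, the window of Nqo1 holds 5 and the 2 windows of Mgst1 hold 13 and 1. The median over all windows was 7, with quartiles of 3 and 20. BMI-1 binding or methylation at these promoters was not analysed here.

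Both methionine sulfoxide reductases of the set, which repair oxidized methionine in proteins, were lower on every Bmi1 array, while outside the set 1 relative fell and another lay higher. Msra read 6.41, 6.46 and 6.40 with the empty vector and 6.06, 6.17 and 6.12 with Bmi1. The log2 difference was -0.31 (SE 0.07, adjusted p = 0.049), and without any 1 array the adjusted p was 0.099 to 0.16. Msrb2, the mitochondrial enzyme for the other stereoisomer, read 5.98, 5.98 and 5.74 against 5.43, 5.50 and 5.61, without overlap but short of the test (log2 difference -0.39, adjusted p = 0.081). Msrb1, a selenoenzyme with the same activity outside mitochondria and no member of the set, fell by 0.75 on the log2 scale (adjusted p = 0.0075), from 7.45 ± 0.09 to 6.70 ± 0.13 (SD, n = 3 each). Msrb3, which also is no member, read 6.19, 6.08 and 6.31 against 6.52, 6.74 and 6.54, higher on every Bmi1 array without passing (log2 difference 0.40, adjusted p = 0.071).
The sources of superoxide in the set were dim. Nox4, the NADPH oxidase that needs no activating subunits, read 2.52, 2.63 and 2.48 against 2.51, 2.36 and 2.66, with groups that overlapped. Cyba, the membrane subunit shared by several oxidases, had means of 4.38 and 4.57 (adjusted p = 0.27). Of 14 other genes of the oxidases, 12 had a mean under 5 and none passed the test.

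Outside the 43 genes, 181 further genes of the same pathways were measured, in 11 lists, of which 19 fell and 7 rose. These calls make 14.4%, beside 7.35% of all genes and 12.3% of all genes with a mean of at least 5. The 181 genes were not matched to either background in brightness. The largest change was that of Selenop, the secreted protein that carries selenium between cells. Selenop read 7.83, 7.95 and 7.96 with the empty vector and 5.81, 5.50 and 5.74 with Bmi1, a log2 difference of -2.23 (SE 0.10, adjusted p = 4.9e-04), or 4.69-fold lower. Lrp8, a receptor that takes up Selenop in the brain, rose by 0.60 and Eefsec, the elongation factor that delivers selenocysteine to the ribosome, by 0.39 (adjusted p = 0.019 and 0.031). The call of Selenop held with each array left out, that of Lrp8 in 2 of the 6 such fits and that of Eefsec in none. The other 22 of 25 selenoprotein genes and genes of their synthesis did not pass, and the median of that list was 0.06.
Among genes of Nrf2 partners and targets, 5 fell and 1 rose of 36 measured in 2 lists. Of the partners 11.1% were called and of the targets 22.2%, beside 7.35% of all genes and 12.3% of the brighter ones. Ephx1, the microsomal epoxide hydrolase, read 10.76, 10.83 and 10.82 against 10.22, 10.07 and 10.11, a log2 difference of -0.66 (adjusted p = 0.0049). Aox1, an aldehyde oxidase, fell by 1.13, Tmem86a by 0.60, and Nfe2l1, which encodes a relative of Nrf2, by 0.51 (adjusted p = 0.0088, 0.029 and 0.016). The coactivator gene Ppargc1a fell by 0.64, whereas Ugdh, which makes the sugar donor for glucuronidation, rose by 0.80 (adjusted p = 0.019 and 0.0061). The medians of the 2 lists were -0.02 and 0.01, near that of all genes.
In glutathione supply and breakdown 2 of 17 genes rose and none fell, or 11.8% called, beside 7.35% of all genes and 12.3% of the brighter ones. They were the glutamine transporter gene Slc1a5 (0.84) and Cbs (0.62), which starts the route from homocysteine to cysteine (adjusted p = 0.0052 and 0.047). With 1 array left out, Slc1a5 passed in all 6 fits and Cbs in 1 of them. Slc7a11, the cystine carrier, had a log2 difference of -0.01 (adjusted p = 0.97). Of 18 genes of NADPH supply, the mitochondrial malic enzyme gene Me3 rose by 0.70, and Idh2 and Nnt, which also serve mitochondrial NADPH, fell by 0.46 and 0.43 (adjusted p = 0.010, 0.030 and 0.032). Of the NADPH list 16.7% were called, and its median was 0.00.
Of 13 genes of heme and iron handling, Fth1, the ferritin heavy chain, and Tfrc, the transferrin receptor, fell by 0.43 and 0.49 (adjusted p = 0.014 and 0.039). The other 11 did not pass. The mean was lower for 12 of the 13, with a list median of -0.14, and for 9350 of all 19938 genes (5361 of the 10223 brighter ones). Copies of Fth1 elsewhere in the genome may share its probes. Of 20 other peroxidase, thioredoxin-like and repair genes, Nxn, which encodes nucleoredoxin, rose by 0.64, while Msrb1 and Oxr1, which protects against oxidative damage, fell by 0.75 and 0.67 (adjusted p = 0.0054, 0.0075 and 0.0069). Of 16 genes of sestrins, sirtuins, FoxO factors and their like, Sesn2 and Trp53inp1 fell by 0.72 and 0.74 (adjusted p = 0.0031 and 0.0098). Of 6 metallothionein genes, Mt3, the brain form, fell by 0.66 (adjusted p = 0.0063). In the order given, 15.4%, 15%, 12.5% and 16.7% of these lists were called, beside 7.35% of all genes and 12.3% of the brighter ones.
Of the 26 calls named from these lists, 14 held with each array left out, 3 (Nnt, Tfrc and Eefsec) were lost in all 6 such fits and 9 in some of them.

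**Figure D4:**
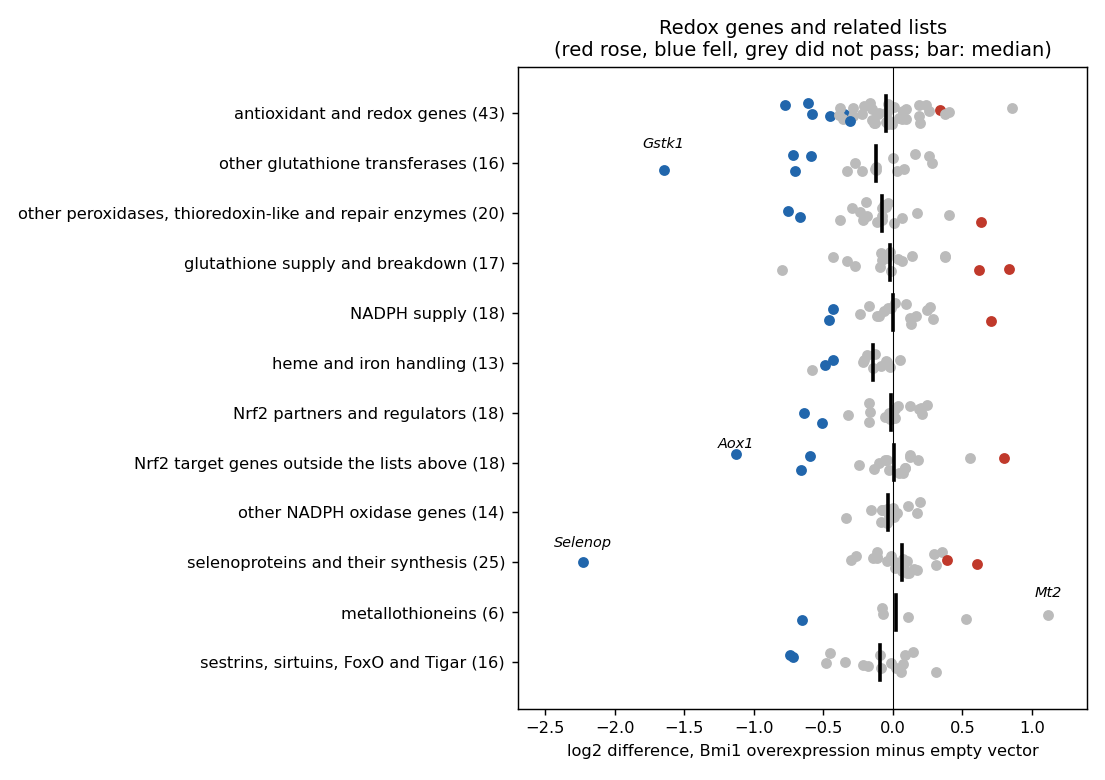
Log2 difference, Bmi1 overexpression minus empty vector (x axis), with 1 point per gene, for the 43 redox genes and 11 lists of related genes (y axis, number measured in parentheses), red for genes that rose, blue for those that fell, grey for those that did not pass, and a bar at each median (vertical jitter has no meaning). Medians lie between -0.14 and 0.06, while single genes reach -2.23 (Selenop) and 1.12 (Mt2, which did not pass).

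Markers of cell types moved beside these genes. Of 14 astrocyte markers 3 rose and 1 fell, and of 15 oligodendrocyte lineage markers 3 rose and 2 fell. Of 16 neuroblast and neuron markers 5 rose and 2 fell, and of 15 stem and progenitor markers 3 rose and none fell. In this order, 28.6%, 33.3%, 43.8% and 20% of the markers were called, beside 7.35% of all genes and 12.3% of the brighter ones. Summed on the linear scale, the astrocyte markers ranged from 8567 to 9134 on the control arrays and from 8574 to 9547 on the Bmi1 arrays, which overlap. The oligodendrocyte markers ranged from 3189 to 3267 and from 3848 to 3924, and the neuronal ones from 2515 to 2589 and from 2097 to 2201, both without overlap. The neuronal sum was set by its brightest genes, Map2 and Sox11, which both fell. Without Map2 it ranged from 936 to 986 and from 989 to 1004, and without both from 394 to 412 and from 546 to 566, higher with Bmi1. The astrocyte sum without its brightest genes, Aldoc and Acsbg1, also was higher with Bmi1, at 5074 to 6004 against 4353 to 4639. The oligodendrocyte sum without Olig1 and Cnp stayed higher, at 458 to 538 against 339 to 385. The stem and progenitor sum overlapped, at 17065 to 17585 with Bmi1 against 16534 to 17222. Without Vim, its brightest gene, it was higher with Bmi1, at 12353 to 12649 against 11550 to 12262. Without Vim and Fabp7 it overlapped again, at 7837 to 8139 against 8010 to 8161. The part of the cell type markers in the differences of the redox genes was not tested. Of 14 microglia and macrophage markers and 11 endothelial markers, all had a mean under 5, and none passed the test, as did none of 12 ependymal markers. Of 12 pericyte and fibroblast markers 1 fell, the smooth muscle actin gene Acta2.

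The calls near the threshold moved with the settings. Across 18 alternatives Gpx8 passed in 17, and of the other genes Mgst1 passed in 11 of 18, Msra in 9 of 18, Gsta4 in 8 of 18, Nqo1 in 8 of 17, Sod3 in 7 of 16 and Prdx4 in 7 of 18. The direction of these 7 genes was the same in each alternative that could be fitted.

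**Figure D5:**
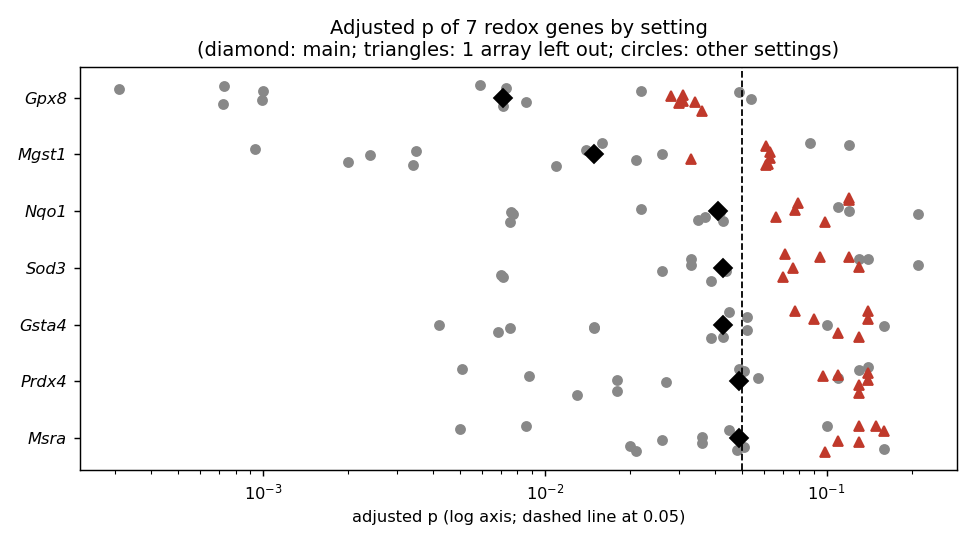
Adjusted p (x axis, log scale) of the 7 redox genes that passed the test (y axis), with a diamond for the value as reported, triangles for fits with 1 array left out, circles for the other settings and a dashed line at 0.05 (vertical jitter has no meaning). The triangles of Gpx8 lie at 0.028 to 0.036, left of the line, and those of Msra at 0.099 to 0.16, right of it.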

How the data were processed

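RNA of 6 neurosphere cultures (300 ng of total RNA each) was hybridized, with 1 Affymetrix Mouse Gene ST array per culture. The authors deposited log2 expression values per probe set, made with RMA. The submitters' processing notes also name Affymetrix Expression Console, and its version is not given in the sources used here. RMA corrects background, quantile normalizes the arrays and summarizes the probes, which compresses differences of dim genes. Groups follow titles and the transduction and genotype fields. All per-sample columns were used.
Of 35557 probe sets, the platform annotation pairs 21789 with a single gene and 1621 with more than 1. The latter stayed unnamed, as did 12147 that are not in it. Entrez identifiers of 21698 were found in the RefSeq table of GRCm38.p6, and 0 symbols changed. The brightest probe set of each gene, by its mean over the 6 arrays, was kept.
Two-sided tests came from limma 3.58.1 (lmFit, then eBayes, no covariate) under R 4.3.3. P-values were adjusted by Benjamini-Hochberg across every probe set. Figures were drawn with matplotlib 3.10.9. The p-values measure the spread between these cultures. Intervals are 95% confidence intervals. The script was tested on simulated data. Genes were named where they passed, with a fixed list of central redox genes, the 3 largest differences that did not pass, and up to 4 passing genes of each related list. The remaining members were given with their role group, and Slc7a11 and further genes outside this rule were added after their values were seen. Members and lists were chosen with earlier results of these data known. Alternatives covered the test, filters on dim probe sets, 1 or all probe sets per gene, scaling, the variance prior, array weights, a replicate block and each array left out.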

Additional observations from a re-analysis of the deposited data

How the results depend on the processing

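The counts of redox genes that rose and fell (1 and 6 of the 43) were 3 and 10 with 1 probe set per gene tested, 3 and 10 with a gene's probe sets averaged, 2 and 8 with an intensity trend, 2 and 9 with a mean of at least 5, 3 and 9 with a mean of at least 6, 0 and 7 after median centring, and 0 and 5 with a robust prior. They were 0 and 3 with the methods' t-test after Benjamini-Hochberg adjustment, 0 and 0 at its own thresholds, 0 and 1 in its Welch form, and 0 and 1 to 3 with 1 array left out. Of the related genes, 7 rose and 19 fell. The number that rose was 15 with 1 probe set per gene, 15 with probe sets averaged, 14 with the trend, and 16 and 18 with means of at least 5 and 6. The methods' t-test gave 12 that fell after adjustment, 0 and 1 at its own thresholds, and 0 and 2 in its Welch form, and leaving out 1 array gave 3 to 7 and 11 to 15. Of all probe sets 794 rose and 1231 fell. These counts were 1544 and 1880 with a mean of at least 5, 1346 and 1847 with a mean of at least 6, 71 and 139 in the Welch form, 100 and 200 at the methods' thresholds, and 332 to 455 and 642 to 820 with 1 array left out, and 1364 rose with the trend and 492 with the methods' t-test after adjustment. Array weights and quantile normalization left each of the 6 counts within 1.5 times.
Arrays of the same replicate number did not deviate together over all probe sets (correlations of 3.39e-05, -0.0319 and -0.0176). With 3 arrays a group, this cannot exclude that cultures of the same number were made or handled together. With the replicate block, 0 redox genes rose and 0 fell, 2 and 13 of the related genes, and 306 and 544 of all probe sets. The share of calls that fell was 60.8%, 71.2% after median centring and 59.5% after quantile normalization. The difference of Gsr, which did not pass, was 0.007 after quantile normalization, and that of Nox4 was -0.11 to 0.042 with 1 array left out (0.042 without Bmi1 replicate 2, 0.008 without empty vector replicate 2). The positive values are opposite in sign to those reported. The causes were not tested. Precision is limited by 3 arrays a group.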

Other observations

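By the place of their products, a grouping chosen after the values were seen, the 3 measured redox genes assigned to the endoplasmic reticulum alone lay in different directions, with Gpx8 lower and Prdx4 and Gpx7 higher on every Bmi1 array. Groups did not overlap for 31.3% of all genes. Mgst1, found there and in mitochondria, was not counted among the 3. Of 6 genes assigned to mitochondria alone, none passed the test, beside 7.35% of all genes. Their log2 differences ran from -0.39 for Msrb2 to 0.07 for Txnrd2. Of the 6 selenoenzymes among the 43 genes, none passed, beside the same 7.35%. The mean with Bmi1 was higher for 5 of them, and for 10588 of all 19938 genes (4862 of the 10223 brighter ones). Their median log2 difference was 0.08, while Selenop lay 2.02 below its nearest control array.
The metallothionein genes Mt1 and Mt2, which encode zinc-binding proteins, were higher on every Bmi1 array without passing the test. Mt2 read 9.19, 9.14 and 9.30 with the empty vector and 10.05, 9.92 and 11.01 with Bmi1 (adjusted p = 0.082). Mt1 read 9.99, 9.97 and 10.05 against 10.39, 10.35 and 10.84 (adjusted p = 0.096). For both, as for Txnip, Bmi1 replicate 3 was the highest array.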
